A study of Mus musculus with 2 samples.

Results

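Genes for collagens, laminins, collagen-crosslinking enzymes, fibronectin and matricellular proteins were compared between mouse embryonic stem (ES) cells with and without induced CTCFL, a zinc finger protein of the male germ line and a relative of CTCF. They were chosen by gene symbol alone: collagen alpha chain genes, laminin alpha, beta and gamma chain genes, Lox and its relatives, Fn1, Sparc, Thbs1, Thbs2, Ccn1 and Ccn2. The rule found 64 genes read by 67 probe sets, of 19938 genes with a name on the array. Of the 64 genes 44 encode collagen chains and 10 encode laminin chains. The probe set of Loxl2 is shared with the gene model Gm21451 and entered no result.

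The induced array held RNA of CTCFL_V5_GFP transgenic ES cells that received doxycycline for 3 days and were then sorted for GFP. The other array, called non-induced, came from the same transgenic cells with neither doxycycline nor sorting. Both were cultured with LIF on plastic coated with gelatin, itself a collagen product, and both carry the reverse transactivator from the ROSA26 locus and a tetracycline-responsive transgene for mouse CTCFL fused to V5 and GFP. Cells were taken through G418 selection and cloning, and no source used here says whether the arrays used 1 clone. There was 1 Affymetrix Mouse Gene 1.0 ST array per group, so no test could be made, the values describe these arrays, and doxycycline, sorting and CTCFL cannot be told apart. Ctcfl itself read 9.44 in the array labelled induced and 5.99 in the array labelled non-induced (log2 signal).

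Collagens are built from chains that wind around each other in a triple helix. Fibrillar collagens, above all types I, II and III, assemble into the ropes of connective tissue, cartilage and bone. Basement membranes are thin sheets under epithelia made of a laminin polymer and a type IV collagen network. ES cells and the early embryo make laminin and type IV collagen long before connective tissue appears, whereas fibrillar collagens are typical products of fibroblasts and other mesenchymal cells. Matricellular proteins such as thrombospondins and CCN proteins sit in the matrix but act mainly as signals to cells.

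Most collagen genes had more signal after induction, while laminin genes did not. Of the 44 collagen genes 41 had a difference above 0 (induced minus non-induced, in log2 signal) and 3 below 0, with a median of 0.37, and 36 to 41 of them were above 0 under the 5 scaling and probe set alternatives. Of the 10 laminin genes 4 were above 0 and 6 below, with a median of -0.04, which was 0.00 after a second quantile normalization. Over all 64 genes 53 were above 0 and 11 below, with a median difference of 0.30. After centring or lowess 46 of the 64 were above 0, and after a second quantile normalization 50. Of all 19938 named genes 51.4% were above 0, with a median of 0.01. Bulk RNA was measured, from GFP-sorted cells in the induced array and from unsorted cells in the non-induced array, so a larger share of collagen-making cells and more collagen RNA per cell cannot be told apart.

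The differences were modest. At a size of log2 1, a 2-fold difference, 0 of the 64 genes were higher and 0 lower in the induced array when the brighter value had to reach a floor of 6.36, the middle value over genes on both arrays. In the background 0.477% of the 10697 genes at the floor were higher and 1.79% lower. Of the 64 genes 46 reached the floor, 31 in both arrays and 15 in the induced array only. Genes that reach the floor in the induced array only are higher there by that choice. Of the 31 genes at the floor in both arrays 25 were above 0, against 43.7% of the 9241 named genes at the floor in both. Without the floor Col4a5 was the 1 gene past log2 1, where 0.707% of all named genes were higher and 1.49% lower by that much. At a size of log2 0.58, or 1.49-fold, 11 of the 64 genes were higher and 0 lower without a floor, against 6.82% and 7.40% of all named genes. With the floor 10 were higher and 0 lower, beside 5.31% and 8.45% of the genes there, but 5 of the 10 reached the floor in the induced array only. Under the 5 scaling and probe set alternatives 2 to 9 genes were higher by log2 0.58, with 2 when a constant of 32 was added. Among the 31 genes at the floor in both arrays 5 were higher and 0 lower, beside 2.58% and 7.69% of the named genes there.

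Replicates being absent, the SD of the difference between probe sets of the same gene was taken as a partial gauge of error. It was 0.33 on the log2 scale over 999 genes with 2850 probe sets, and it holds isoform differences and technical error together. Variation between cultures or arrays that all probe sets of a gene share does not enter it, so it does not stand in for the spread between replicates. By this gauge 31 of the 64 genes, 25 of them collagens and 1 of them a laminin, were higher by more than 1 SD, and 0 were lower. Among all named genes 19.8% were higher and 19.0% lower by more than this.

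**Figure D1:**
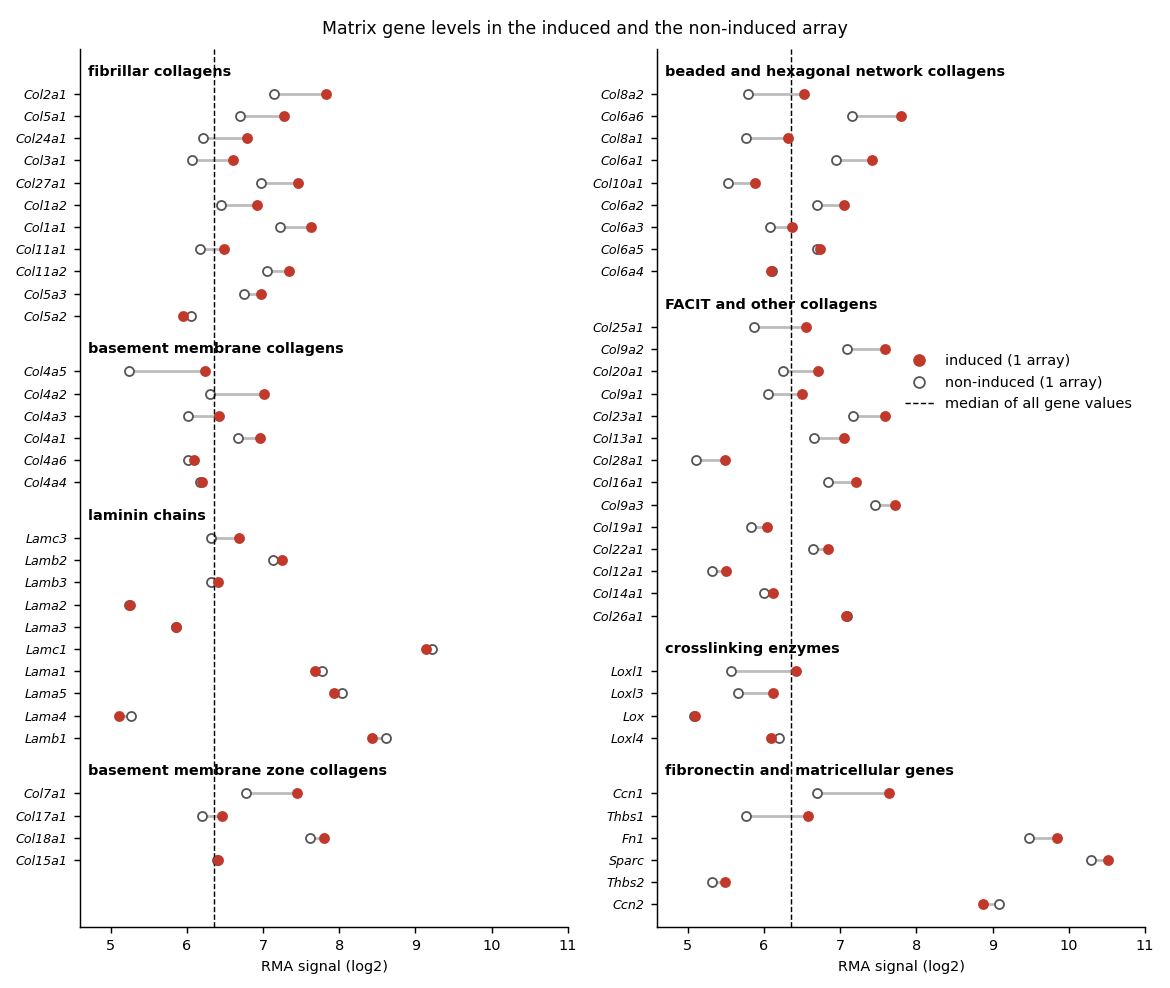
RMA signal (log2, horizontal axis) of the 64 genes in the induced array (filled circles) and the non-induced array (open circles), 1 array each, by gene list and ordered by difference. The floor (6.36) is drawn as a dashed line. In the collagen lists the induced circle lies to the right for 41 of 44 genes, and in the laminin list the circles nearly coincide except for Lamc3 (6.69 induced, 6.32 non-induced).

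The fibrillar collagens were examined first. Of 11 genes 10 were above 0, with a median difference of 0.47, and 10 were above 0 under each of the 5 scaling and probe set alternatives too. Col2a1, the collagen of cartilage, had a log2 signal of 7.83 in induced cells and 7.15 in non-induced cells, a difference of 0.69 or 1.61-fold. Col1a1 and Col1a2, which encode the chains of type I collagen of bone, skin and tendon, were close to each other. Col1a1 had a log2 signal of 7.63 in induced cells and 7.22 in non-induced cells, a difference of 0.42. Col1a2 stood at 6.92 in induced cells and 6.44 in non-induced cells on the log2 scale, a difference of 0.47. Col3a1, the collagen of vessels and other pliable tissues, stood at 6.60 in induced cells and 6.07 in non-induced cells, a difference of 0.53.

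Type V and type XI collagens start and limit the growth of fibrils, and the chains of type V lay farther apart than Col11a1 and Col11a2 of type XI. Col5a1, the chain found in most type V collagen, had a log2 signal of 7.27 in induced cells and 6.69 in non-induced cells (difference 0.58). Col5a2, its usual partner, was the 1 fibrillar gene below 0, at 5.95 induced and 6.06 non-induced (difference -0.11). Col5a3 had a difference of 0.21, from log2 signals of 6.97 induced and 6.76 non-induced. Col11a1 differed by 0.31 (6.49 induced, 6.18 non-induced) and Col11a2 by 0.28 (7.34 induced, 7.06 non-induced). The remaining fibrillar genes are less studied. Col24a1 had a difference of 0.57 (6.79 induced, 6.22 non-induced) and Col27a1 of 0.49 (7.47 induced, 6.98 non-induced).

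The basement membrane genes were then set apart from the fibrillar ones. Over the 6 type IV collagen and 10 laminin genes 10 were above 0 and 6 below, with a median difference of 0.05, but the 6 collagens and the laminins did not go together. The type IV genes were all above 0 as deposited, with a median of 0.35, while 4 of 6, without Col4a4 and Col4a6, were above 0 after centring, lowess or a second quantile normalization. Col4a1 and Col4a2 encode the chains of the network common to nearly all basement membranes. Col4a1 had a log2 signal of 6.96 in induced cells and 6.67 in non-induced cells, a difference of 0.29. Col4a2 stood at 7.01 induced and 6.31 non-induced on the log2 scale, a difference of 0.70. Col4a3 and Col4a4, which enter the network of the kidney filter, had differences of 0.40 (6.42 induced, 6.02 non-induced) and 0.02 (6.20 induced, 6.18 non-induced).

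Type IV collagen genes lie head to head in pairs, so that the members of a pair are transcribed away from each other. The widest gap within a pair was that of the X-linked genes, whose mutations in Col4a5 or its human counterpart cause Alport kidney disease. Col4a5 had a log2 signal of 6.24 in induced cells and 5.24 in non-induced cells, higher by 1.00, and 99.3% of all named genes had a smaller difference. It lay below the floor in both arrays, and its difference was 0.63 when 32 was added to each linear signal. Col4a6, its neighbour, had 6.09 in induced cells and 6.01 in non-induced cells, a difference of 0.08. In RefSeq (GRCm38.p6) their starts lie 1343 bases apart, and those of Col4a1 and Col4a2 lie 21 bases apart on opposite strands. The 250 bases before each start of the X-linked pair are shown because the neighbours share a locus and their differences lay far apart. The regions are chrX:141475169-141475418 on the plus strand for Col4a5 and chrX:141474077-141474326 on the minus strand for Col4a6, and capitals mark the GC box (GGGCGG on either strand), a site of Sp family factors.
Col4a5: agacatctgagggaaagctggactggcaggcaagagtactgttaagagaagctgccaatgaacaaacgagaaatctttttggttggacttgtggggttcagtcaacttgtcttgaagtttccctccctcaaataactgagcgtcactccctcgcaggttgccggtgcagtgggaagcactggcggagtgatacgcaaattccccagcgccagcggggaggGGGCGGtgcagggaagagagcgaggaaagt
Col4a6: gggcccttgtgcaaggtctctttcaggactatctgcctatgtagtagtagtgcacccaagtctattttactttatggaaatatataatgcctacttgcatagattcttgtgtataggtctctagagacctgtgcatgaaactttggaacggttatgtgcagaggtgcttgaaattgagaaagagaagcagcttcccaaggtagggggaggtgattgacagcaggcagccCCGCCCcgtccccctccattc
Each window held 1 GC box, 24 bases before the start in Col4a5 and 15 bases before it in Col4a6, and neither held a TATA box (TATAAA). GC content of the windows was 54.0% for Col4a5 and 47.6% for Col4a6.

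Promoter windows in the RefSeq table were found for 44 of the 64 genes (48 windows), and Ccn2, Thbs1 and Col1a1 were among the genes without one. A GC box lay in 54.2% of these 48 windows and in 32.7% of all 32851 promoter windows of the same length. A core of the CTCF motif, searched on both strands as CCA, NN, AG, NN and GGC in a row with N for any base, was in 0 of the 48 windows and in 2.07% of all windows. TATAAA was in 14.6% of the 48 windows and in 12.4% of all. A match of letters is a description of the sequence and not evidence of binding.

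The laminin genes differed little between the arrays. Laminins are trimers of an alpha, a beta and a gamma chain, and the trimer of Lama1, Lamb1 and Lamc1 is a laminin of the early embryo. Lama1 had a log2 signal of 7.68 in induced cells and 7.77 in non-induced cells, a difference of -0.09. Lamb1 stood at 8.42 induced and 8.61 non-induced (difference -0.18), and Lamc1 at 9.13 induced and 9.22 non-induced (difference -0.09). After a second quantile normalization Lama1 and Lamc1 turned to 0.00 and 0.05, and after lowess Lamc1 was at 0.01. Lama5, the alpha chain of most adult epithelia, was at -0.11, from 7.93 induced and 8.04 non-induced, and this turned to 0.01 after a second quantile normalization.

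The remaining laminin chains are those of muscle, vessel, nerve and skin. Lamb2 had a difference of 0.11 (7.25 induced, 7.14 non-induced) and Lamb3, a chain of the laminin that anchors skin, of 0.10 (6.41 induced, 6.32 non-induced), which turned below 0 after centring, lowess or quantile normalization. Lama2, Lama3 and Lama4 lay below the floor in both arrays, with log2 signals of 5.25, 5.86 and 5.12 in induced cells and 5.24, 5.86 and 5.27 in non-induced cells. Lamc3 alone exceeded the SD between probe sets, at a log2 signal of 6.69 in induced cells and 6.32 in non-induced cells, a difference of 0.37. Across the scaling and probe set alternatives 2 to 5 of the 10 laminin genes were above 0.

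Collagens that link basement membranes to the tissue around them were next. Col7a1, which forms the anchoring fibrils under the skin, had a log2 signal of 7.45 in induced cells and 6.77 in non-induced cells, a difference of 0.68. Col17a1, a transmembrane collagen of hemidesmosomes, differed by 0.26 (6.46 induced, 6.20 non-induced). Col18a1, from which endostatin is cut, differed by 0.18 (7.80 induced, 7.62 non-induced) and its relative Col15a1 by 0.02 (6.41 induced, 6.39 non-induced). All 4 of this list were above 0, with a median difference of 0.22, and Col15a1 was below 0 after centring, lowess or quantile normalization.

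Of 9 genes for beaded filament and hexagonal network collagens 8 were above 0, with a median difference of 0.35. The chains of type VI collagen, the beaded filaments around cells, lay close together. Col6a1 was at 0.47 (7.41 induced, 6.94 non-induced), Col6a2 at 0.35 (7.05 induced, 6.70 non-induced) and Col6a3 at 0.28 (6.36 induced, 6.08 non-induced). Type VIII collagen makes the sheet beneath the corneal endothelium. Its chains differed by 0.74 for Col8a2 (6.53 induced, 5.79 non-induced) and 0.55 for Col8a1 (6.32 induced, 5.77 non-induced). Col10a1, the collagen of hypertrophic cartilage, was below the floor with a difference of 0.35, and Col6a4 was at -0.02.

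The clustered paralogs Col6a5 and Col6a6 were read by 2 probe sets each, which disagreed. The brighter probe set of Col6a6 had a log2 signal of 7.80 in induced cells and 7.16 in non-induced cells, a difference of 0.64, while the dimmer was at 4.43 induced and 4.91 non-induced, a difference of -0.48. For Col6a5 the differences were 0.04 by the brighter probe set (6.73 induced, 6.69 non-induced) and -0.83 by the dimmer (5.14 induced, 5.97 non-induced). Both genes stand in the counts by their brighter probe set. Over the 42 collagen genes with 1 probe set 39 were above 0.

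The 14 remaining collagens include those that decorate fibrils and those that span the cell membrane. Of these 13 were above 0, with a median difference of 0.37. The chains of type IX collagen, which coats cartilage fibrils, differed by 0.50 for Col9a2 (7.59 induced, 7.09 non-induced), 0.44 for Col9a1 (6.50 induced, 6.05 non-induced) and 0.26 for Col9a3 (7.72 induced, 7.46 non-induced). Among transmembrane collagens Col25a1, first found in amyloid plaques, differed by 0.68 (6.55 induced, 5.87 non-induced), Col23a1 by 0.42 (7.59 induced, 7.17 non-induced) and Col13a1 by 0.38 (7.04 induced, 6.66 non-induced). Col20a1 was at 0.45 (6.70 induced, 6.25 non-induced), Col16a1 at 0.36 (7.21 induced, 6.84 non-induced) and Col22a1 at 0.20 (6.84 induced, 6.64 non-induced). Col26a1 was at -0.01 (7.08 induced, 7.09 non-induced) and 0.01 after a second quantile normalization. Col12a1, Col14a1, Col19a1 and Col28a1 lay below the floor with differences of 0.12 to 0.38, of which Col14a1 was at -0.01 after lowess.

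**Figure D2:**
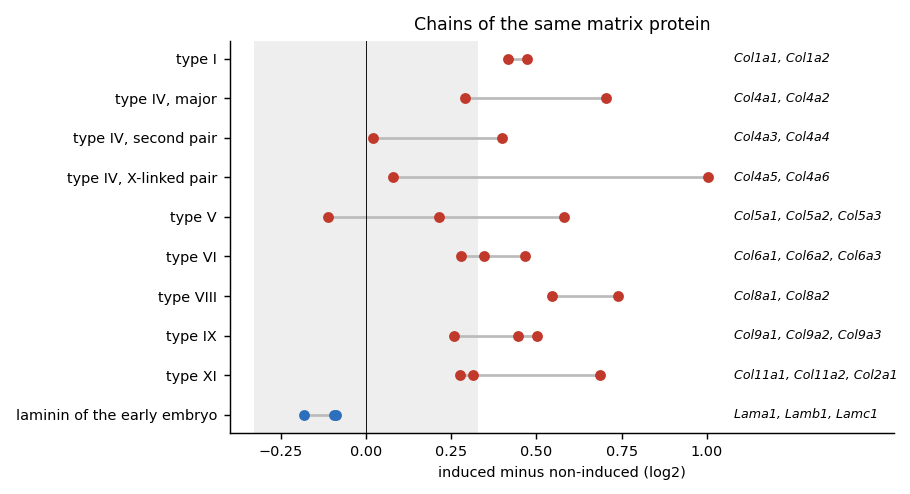
Difference in log2 signal (induced minus non-induced, horizontal axis) of genes that encode chains of the same collagen type or of a laminin of the early embryo (Lama1, Lamb1 and Lamc1), 1 point per gene, joined by a line. The grey band is 1 SD between probe sets of 1 gene (0.33) either side of 0. The chains of type I (0.42 and 0.47) lie together, while those of the X-linked type IV pair lie farthest apart (1.00 and 0.08).

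Chains that join in the same protein were compared with each other. The chains of type I differed from each other by 0.06 in their log2 difference, those of type VI (Col6a1 to Col6a3) by 0.19, those of type VIII by 0.19 and those of type IX by 0.24, each less than the SD between probe sets. The 3 laminin chains Lama1, Lamb1 and Lamc1 differed by 0.10. Type XI collagen takes its remaining chain from Col2a1, so that gene was set beside Col11a1 and Col11a2. In type XI (0.41), in type V (0.69), in the major type IV pair (0.41), in the Col4a3 and Col4a4 pair (0.38) and in the X-linked type IV pair (0.92) the chains differed by more than that SD. The SD is that of a single difference, whereas a gap between chains holds the error of each chain. Gaps of 0.38 and 0.41 are therefore not told apart from error by this gauge. The gaps of types V, VI, IX and XI and of laminin are ranges over 3 chains, which error alone widens more than a gap between 2. The gap of 0.69 in type V was not tested against error.

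Among the enzymes that crosslink collagen and elastin, Loxl1, which serves elastic fibres, had a log2 signal of 6.42 in induced cells and 5.56 in non-induced cells, a difference of 0.85 or 1.81-fold. Loxl3 was below the floor in both arrays, with a difference of 0.46 (6.12 induced, 5.66 non-induced). Lox, the founding member of the family, was at 5.09 induced and 5.08 non-induced (difference 0.01, below 0 after centring, lowess or quantile normalization). Loxl4 had a difference of -0.11 by its brighter probe set (6.09 induced, 6.20 non-induced) and 0.68 by its dimmer (4.69 induced, 4.01 non-induced), and it stands in the counts by the brighter. Over the 61 genes of the whole set with 1 probe set 51 were above 0. Only 1 of these 4 genes reached the floor.

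Ccn1 and Thbs1, both matricellular, were among the widest differences of the set. Ccn1, a CCN family signal to endothelium and mesenchyme, had a log2 signal of 7.64 in induced cells and 6.70 in non-induced cells, a difference of 0.94 or 1.92-fold, and 99.0% of all named genes had a smaller difference. Thbs1, the thrombospondin that activates latent TGF-beta, stood at 6.57 induced and 5.76 non-induced, a difference of 0.81 or 1.76-fold. Fn1, whose product is the fibronectin that cells grip through integrins, stood at 9.85 induced and 9.48 non-induced, a difference of 0.37. Sparc, a collagen-binding protein also made by parietal endoderm, stood at 10.5 induced and 10.3 non-induced, a difference of 0.22. Thbs2 was below the floor with a difference of 0.16.

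Ccn2, the closest relative of Ccn1 in this set, was not higher. Its log2 signal was 8.87 in induced cells and 9.08 in non-induced cells, a difference of -0.22, within the SD between probe sets. It was -0.12 after lowess, -0.07 after a second quantile normalization and -0.32 after centring. Both CCN genes are textbook targets of YAP with TEAD factors and of serum response factor. The 250 bases before the Ccn1 start in RefSeq (GRCm38.p6, chr3:145649986-145650235, minus strand) are shown because Ccn1 had the widest difference of the genes of the set at the floor. Capitals mark the TEAD element (CATTCC, either strand), the TATA box (TATAAA) and the GC boxes (GGGCGG, either strand), and the TATA box runs directly into a GC box.
Ccn1: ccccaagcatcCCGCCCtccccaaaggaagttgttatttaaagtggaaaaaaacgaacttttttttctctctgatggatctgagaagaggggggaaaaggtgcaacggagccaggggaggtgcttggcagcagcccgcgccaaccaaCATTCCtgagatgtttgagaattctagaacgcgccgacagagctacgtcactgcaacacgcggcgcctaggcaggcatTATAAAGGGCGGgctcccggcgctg
The window held 1 TEAD element 97 bases before the start, 1 TATA box 19 bases before it, 2 GC boxes and no CArG box, the element of serum response factor. Only these 250 bases were searched, so a CArG box farther from the start would not be seen. For Ccn2 no window was found, so its promoter was not compared with that of Ccn1. The letters CATTCC were in 12.5% of the 48 windows and in 12.6% of all promoter windows, and a CArG box was in 4.17% of the 48 windows and in 1.47% of all.

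Other genes of the same pathways were listed by function. Enzymes and chaperones that fold and modify collagen had a median difference of 0.12 over 18 genes, 11 above 0 and 7 below, and the median was 0.018 after centring and 0.029 after lowess. Plod2, the lysyl hydroxylase that prepares collagen ends for crosslinking, was the widest, with a log2 signal of 6.70 in induced cells and 7.74 in non-induced cells, a difference of -1.05. P3h1, a prolyl 3-hydroxylase, was at 0.52, Plod3 at 0.44 (7.09 induced, 6.64 non-induced) and the collagen chaperone gene Serpinh1 at 0.28 (7.97 induced, 7.69 non-induced). Of 7 genes for the trimming of procollagen 6 were above 0, with a median of 0.23. The median was 0.15 when genes were taken by the mean of their probe sets, which in this list alters Adamts3 alone. Tll1 was at 0.72, below the floor, and its relative Bmp1, the procollagen C-proteinase, at 0.44 (7.33 induced, 6.89 non-induced). Adamts3, a procollagen N-proteinase, was at 0.27 (6.91 induced, 6.64 non-induced) by its brightest of 16 probe sets, and Pcolce, the enhancer of the C-proteinase, at 0.23 (10.3 induced, 10.1 non-induced).

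Other components of basement membranes had a median of 0.11 over 15 genes, 9 above 0 and 6 below, which turned to -0.02 after lowess and -0.01 after a second quantile normalization. Tinagl1 was at 0.66 (6.91 induced, 6.25 non-induced), whereas Smoc1 was at -0.48 (6.12 induced, 6.60 non-induced), the proteoglycan gene Agrn at -0.47 (7.35 induced, 7.81 non-induced) and Npnt, an integrin ligand of the kidney, at -0.38 (6.28 induced, 6.66 non-induced). Receptors for matrix had a median of 0.27 over 24 genes, with 22 above 0 and 2 below, where 51.4% of all named genes were above 0. Of the 24 genes 14 reached the floor, with a median of 0.19, and 10 did not. The integrin genes Itga1, Itgb5 and Itgav, whose products bind collagen, vitronectin and fibronectin among others, were at 0.69, 0.65 and 0.50, with Itga1 below the floor. The syndecan gene Sdc4 was at 0.49 (8.26 induced, 7.77 non-induced). Targets of YAP and serum response factor outside the set had a median of 0.13 over 19 genes, 13 above 0 and 6 below, and the median was 0.032 after centring and 0.053 over the genes at the floor. Nuak2 was at 0.62 (6.75 induced, 6.14 non-induced), F3 at 0.52 and Actg2 at 0.51, both below the floor, and Amotl1 at -0.48 (6.24 induced, 6.72 non-induced).

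**Figure D3:**
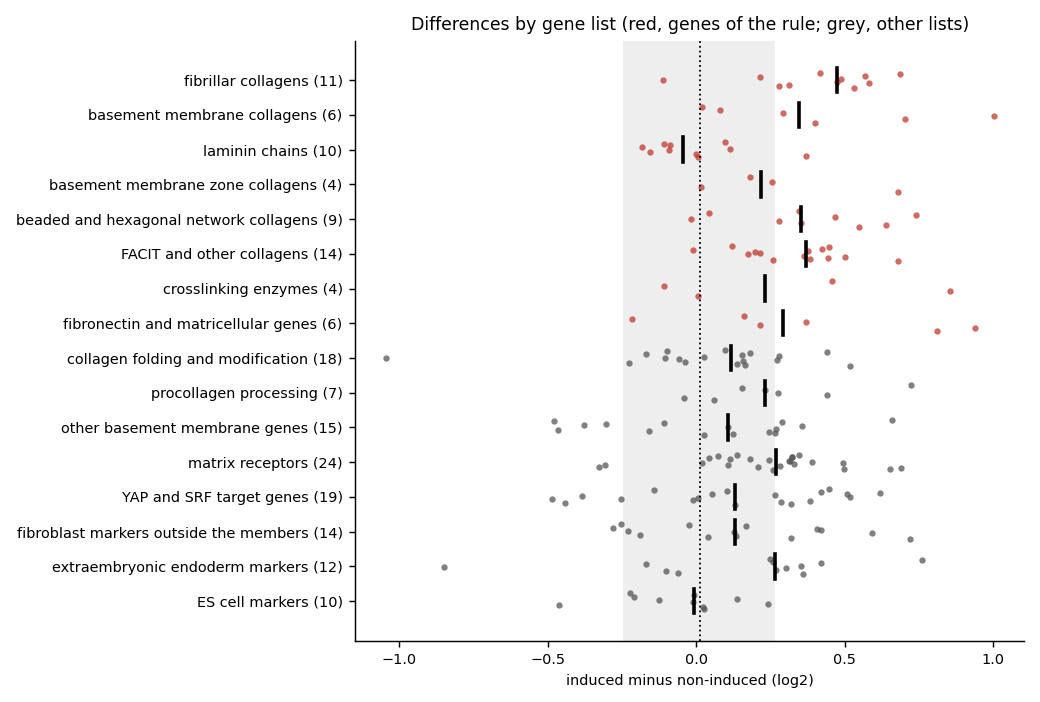
Difference in log2 signal (induced minus non-induced, horizontal axis) of each gene, 1 point per gene, by list with the number of genes in brackets, and the median of each list (black bar). The dotted line is the median of all named genes (0.01) and the grey band their middle range from the 25th to the 75th percentile (-0.24 to 0.26). The fibrillar collagens have a median of 0.47 and the laminin chains of -0.04, and the widest point on the left is Plod2 (-1.05).

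Markers of cell types that an ES culture could hold were set beside these values. ES cell markers had log2 signals of 8.68 to 13.2 in the induced array and 8.44 to 13.0 in the non-induced array over 10 genes, with a median difference of -0.01. Klf4 was at 0.24, Zfp42 at -0.46, Nanog at -0.22 and Tdgf1 at -0.21. Fibroblast markers outside the set were above 0 in 9 of 14 genes, with a median difference of 0.13. Their summed linear signal was 1620 in induced cells and 1680 in non-induced cells. Vim, by far the brightest of the 14 and itself lower in the induced array, weighs most in this sum, so it does not describe the other markers. Of the 14 markers 4 reached the floor, namely Vim, Thy1, Twist1 and Twist2, and 10 did not. Among those 10, Dcn, Lum, Postn and Fap had log2 signals of 4.94, 3.33, 4.28 and 4.06 in the induced array. In the non-induced array they had 5.22, 3.16, 4.24 and 3.93. Pdgfrb was at 0.72, Twist2 at 0.59, Acta2 at 0.42 and Thy1 at 0.41, of which Pdgfrb and Acta2 lay below the floor. Vim was at -0.25 (9.71 induced, 9.96 non-induced). Acta2 and Tagln, both above 0 and below the floor, are also counted in the list of YAP and serum response factor targets.

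Extraembryonic endoderm, which makes much laminin and type IV collagen, was above 0 in 8 of 12 marker genes, with a median difference of 0.26. The summed linear signal of the 12 was 932 in induced cells and 829 in non-induced cells. Of the 12 markers 6 reached the floor and 6 did not. Among all named genes 46.6% of those at the floor and 56.9% of those below it were above 0. Hnf4a was at 0.76 (6.77 induced, 6.01 non-induced), Sox17, below the floor, at 0.42, Amn at 0.36 and Foxa2 at -0.85 (5.83 induced, 6.68 non-induced). The part of such cells in the matrix gene differences was not tested.

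Differences on these arrays also went with signal level, so the collagens were set beside genes of like level. Between mean log2 signals of 6 and 7, 24 of 26 collagen genes were above 0 with a median difference of 0.33, against 60.6% of 4409 named genes with a median of 0.10. Between 7 and 8, 12 of 13 collagen genes were above 0 with a median of 0.42, against 42.6% of 3248 named genes with a median of -0.06. Between 5 and 6 all 5 collagen genes were above 0 with a median of 0.35, against 64.1% of 4207 named genes with a median of 0.14. The laminins between 6 and 7 were above 0 in 2 of 2 genes, with a median of 0.23, and those between 7 and 8 in 1 of 3 genes, with a median of -0.09. Between 5 and 6 laminins were above 0 in 1 of 3 genes, with a median of -0.00. Between 8 and 11 they were above 0 in 0 of 2 genes with a median of -0.13, against 37.3% of 3669 named genes with a median of -0.09. With the trend on level taken out by lowess 36 of 44 collagen genes were above 0, with a median of 0.32.

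**Figure D4:**
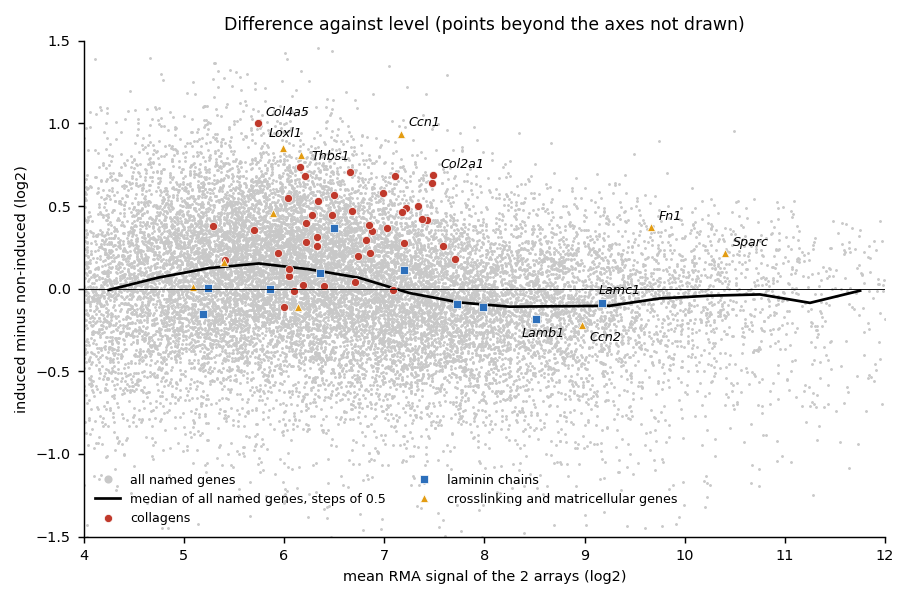
Difference in log2 signal (induced minus non-induced, vertical axis) against mean log2 signal (horizontal axis) for all named genes (grey), collagens (circles), laminin chains (squares) and crosslinking and matricellular genes (triangles). The black line is the median of all named genes in steps of level. Most circles lie above the line, and the squares for Lamb1 (-0.18) and Lamc1 (-0.09) lie near it.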

How the data were processed

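The deposited log2 values of 2 Affymetrix Mouse Gene 1.0 ST arrays were used, 1 per group, from 300 ng of total RNA each. The authors made them by RMA (robust multi-array average): background correction, quantile normalization and 1 summary per probe set. No source used here gives its version, the array annotation or the build. RMA compresses differences of dim genes. Medians over genes were 6.40 induced and 6.30 non-induced. The number of arrays limits the precision.

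Of 35557 probe sets 21789 had 1 platform symbol, of which 21698 were matched to RefSeq (GRCm38.p6) by gene identifier. A gene with several probe sets was represented by the brightest. Lists, sizes and genes were chosen with earlier results of these data known. Named were Col1a1, Col3a1, Fn1, all genes of the set above the floor, the widest of each list and up to 4 genes of each other list; any other gene was named after its values were seen. Calls and scalings were tested on simulated data. Alternatives were centring, lowess (fraction 0.3), quantile normalization, a constant of 32, the mean of probe sets, other floors (none, 75th percentile) and sizes, and the mean. Analyses used Python 3.11.15, numpy 2.4.6, pandas 2.3.3, statsmodels 0.14.6 and matplotlib 3.10.9.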

Additional observations from a re-analysis of the deposited data

How the results depend on the processing

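Over all 64 genes the median was 0.30, and it was 0.20 after centring, 0.22 with a constant of 32 added and 0.37 over the genes at the floor. Of the 46 genes at the floor 15 reached it in the induced array only and 0 in the non-induced array only. That choice of genes by itself favours differences above 0. For the collagen genes (0.37) it was 0.27 after centring, 0.28 with the constant and 0.32 after lowess. For the fibrillar collagens (0.47) it was 0.37 after centring and 0.36 with the constant. For the FACIT and other collagens (0.37) it was 0.27 after centring and 0.26 with the constant. The crosslinking enzymes (0.23) were at 0.85 over the 1 gene at the floor, Loxl1, which reached it in the induced array only. Among the other lists, centring gave 0.018 for collagen folding and modification (0.029 after lowess), 0.0087 for other basement membrane genes (-0.018 after lowess, -0.0092 after quantile normalization), 0.17 for matrix receptors (0.17 with the constant) and 0.032 for the YAP and serum response factor targets. Of 100 recomputed list medians 19 moved by more than the SD between probe sets divided by the square root of the number of genes. The number of genes higher by log2 1 was 0, and 10 at a size of log2 0.58 (5.31% of all genes at the floor) or 1 without a floor. The number higher by log2 0.58 was 8 after centring and 8 after lowess. It was 9 after quantile normalization, 9 by the mean of probe sets and 2 with the constant of 32. The number lower stayed 0 under every alternative. Centring shifted the median of all genes by -0.10. Of 320 recomputed differences of single genes 29 changed sign, in 13 genes, all of them near 0 except Col6a5 and Loxl4 by the mean of their probe sets (-0.39 and 0.29). Col4a5 (0.63 with the constant) and Col6a6 (0.08 by the mean of its probe sets) moved past the SD between probe sets without a change of sign. No paired analysis was possible because there was 1 array per group. The cause of these changes was not tested, and detection calls were not used here, so signals below the floor are not read as presence or absence of a transcript.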
